A study of Mus musculus with 18 samples.

Results

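Most of the genes described here make or break the second messengers cAMP and cGMP, encode kinases that sense them, or anchor the cAMP-sensing kinase. They were taken by symbol, as every gene whose probe sets carry 1 symbol beginning with Adcy, Gucy, Pde and a digit, Prkac, Prkar, Prkg or Akap, leaving out Adcy5, Pde10a and Pde1b. The array carried 49 such symbols, and 29 of them had a probe set above a log2 level of 4 in at least 3 of the 18 arrays. These 29 members are set among 7583 named genes that passed the same filter, each gene standing as its brightest probe set, by mean over the arrays. By family they are 4 adenylyl cyclases, 2 guanylyl cyclase subunits, 8 cyclic nucleotide phosphodiesterases, 2 catalytic and 2 regulatory subunits of protein kinase A (PKA), 1 cGMP-dependent kinase and 7 A-kinase anchoring proteins. The other 3, Pde12, Pde4dip and Pde6d, carry the Pde name but are not enzymes that hydrolyse cyclic nucleotides. Of these, Pde6d lay between 9.40 and 9.65 on all arrays, and Pde12 and Pde4dip are described below.

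The arrays are Affymetrix expression arrays of striatum with the nucleus accumbens, each from a different adult mouse. The groups were 3 control and 3 Camk4 mutant mice given saline and 6 control and 6 mutant mice given cocaine, all killed 1 h after the injection. The dose was 25 mg/kg into the peritoneum, and all animals were littermates aged 10 to 20 weeks that had been caged singly and handled for 5 days. Camk4 encodes CaMKIV, a kinase that calcium-bound calmodulin activates and that is known to phosphorylate CREB, a transcription factor. The mutant allele, its promoter or deleted part and the strain were not given in the sources used here, which call the genotypes control and mutant. The titles number 12 animals in Arabic numerals, 3 in each group, and 6 in Roman numerals, all of them given cocaine, 3 of each genotype. Every saline array is therefore Arabic-numbered, and the fitted cocaine difference averaged over genotypes takes its size from the 12 Arabic-numbered arrays alone. Groups rest on the sample titles, because the separate description lines name other groups.

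Adenylyl cyclases make cAMP when receptors act through stimulatory G proteins, and in medium spiny neurons, the main cells of the striatum, dopamine at D1 receptors and adenosine at its own stimulatory receptors are the known triggers. Soluble guanylyl cyclase makes cGMP when it binds nitric oxide. Phosphodiesterases hydrolyse either or both messengers. cAMP binds the regulatory subunits of PKA and frees the catalytic subunits, which phosphorylate CREB and other proteins, and anchoring proteins hold PKA at particular membranes and organelles. Cocaine blocks the dopamine transporter, and so raises dopamine at these receptors.

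CREB binds the cAMP response element, whose full palindromic form is TGACGTCA and reads the same on both strands. RefSeq promoter windows on GRCm38.p6, 250 bases before to 50 bases after each annotated start, were at hand for 23 of the 29 members. In these 52 windows the full element was found in 1 gene, Prkar1a, which encodes the type I alpha regulatory subunit of PKA. The element occurs in 1.79% of all 32851 windows and in 2.03% of all genes with a window. It stands on the plus strand of chromosome 11, inside 2 of the 6 Prkar1a windows, beginning 49 bases before one annotated start and 38 bases after another. The stretch is shown because Prkar1a is also the member on which the cocaine comparison turned below. The element is in capitals in chr11:109650890-109650917:
Prkar1a: cgaggcgcatTGACGTCAgcagccgaac
The match is one of letters and says nothing of whether a factor was bound there.

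Array medians lay between 4.98, in mutant cocaine replicate 5, and 5.19. The authors' processing had already equalised the arrays, so like medians do not show that the samples were alike. The activity list of 10 immediate early genes, which includes Fos, Arc and Egr1, marked the animals given cocaine. All 10 rose after cocaine in limma's fit averaged over genotypes, by a median of 2.76 (log2). Camk4 had 3 probe sets, 2 of them kept, and only the brightest is given here. It read 7.65 ± 0.06 in control saline mice and 7.30 ± 0.16 in mutant saline mice (SD, n = 3 each), and 7.65 ± 0.10 against 7.27 ± 0.27 after cocaine (SD, n = 6 each). Limma called no genotype difference for it. Mutant cocaine replicate 6, at 7.69, lay within the range of the control arrays, and a probe set outside the mutated part would check nothing. Mutant cocaine replicate 5 stood apart. The 3′ minus 5′ difference of the actin control probe sets, which widens as RNA degrades, was 3.59 there. It was 2.20 ± 0.19 (SD, n = 6) after saline, 2.38 ± 0.17 (SD, n = 6) in cocaine animals with Arabic numbers and 1.70 ± 0.13 (SD) in the other 5 Roman-numbered animals. Among its group of 6, replicate 5 was the lowest array for 7 of the 29 members and the highest for 7, where 21.4% and 36% of all genes had it so.

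Markers of medium spiny neurons were bright on every array. Of the 10 listed, 6 were measured, and their mean level per array ran from 12.93 to 12.98 in control saline, 12.99 to 13.05 in mutant saline, 12.84 to 13.10 in control cocaine and 12.94 to 12.98 in mutant cocaine mice. Over all 18 arrays, the glial lists had array means of 11.63 to 12.28 for oligodendrocytes (6 of 7 measured), 9.89 to 10.16 for astrocytes (7 of 7) and 9.93 to 10.29 for microglia (5 of 5). The highest oligodendrocyte mean was that of mutant cocaine replicate 5, and without it the highest was 11.98. Endothelial genes (3 of 5 measured) ran from 6.71 to 7.44 and genes of thalamus and septum (3 of 5) from 5.45 to 6.14. The 1 measured gene of 6 cortical markers ran from 2.83 to 5.11, and the 1 of 3 choroid plexus markers from 2.26 to 5.29, so both lay near the floor on many arrays. No gene of these 8 marker lists was past an adjusted p of 0.05 in limma's cocaine, genotype or interaction contrasts.

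No member was called in any of the comparisons of treatment or genotype. Cocaine against saline, averaged over genotypes, called 0 of the 29 members, where limma at an adjusted p under 0.05 called 0.29% of all genes, and an ordinary linear model also called 0. At an unadjusted p under 0.05 there were 3 members, Adcy6, Akap12 and Pde4a, against 5.08% of genes. The median difference over members was 0.03 on the log2 scale, and that over all genes 0.01. The 95% interval lay wholly within 0.5 on either side of 0 for 25 members, within 1 for 28, and the member outside was Gucy1a1. Over all arrays, cocaine and saline levels were parted for 0 members, against 0.567% of genes. In whole tissue, fewer cells of a type and less RNA per cell cannot be told apart.

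**Figure D1:**
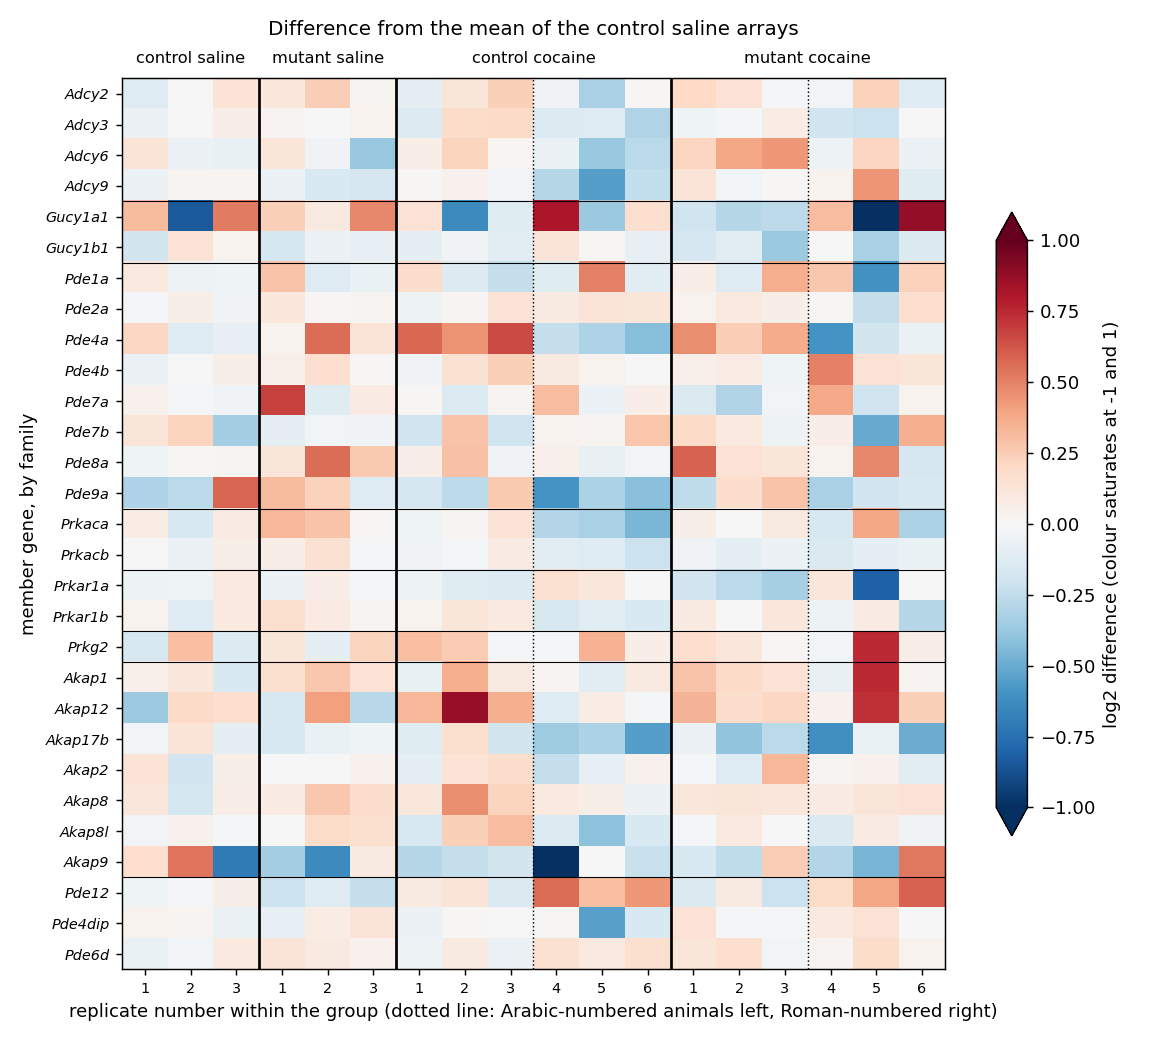
Log2 level of each of the 29 members on each array, minus the mean of the 3 control saline arrays, with red higher and blue lower and colours saturating at 1. Columns are animals in 4 groups, the dotted lines part Arabic- from Roman-numbered animals, and rows are ordered by family. Most cells are pale, the Roman-numbered columns are blue in Pde4a and red in Pde12, and mutant cocaine replicate 5 stands out in Gucy1a1 and Prkar1a.

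Among the adenylyl cyclases, Adcy2, Adcy3, Adcy6 and Adcy9 were measured, while Adcy4, Adcy7 and Adcy8 lay below the filter. Adcy6 encodes a calcium-inhibited cyclase and is the nearest relative of Adcy5. Its level was 4.74, 4.55 and 4.53 in control saline mice and 4.73, 4.57 and 4.23 in mutant saline mice. After cocaine it was 4.67, 4.83 and 4.62 in the Arabic-numbered control mice and 4.82, 4.99 and 5.04 in the mutant ones, against 4.54, 4.23 and 4.34 and 4.55, 4.82 and 4.55 in the Roman-numbered mice. All 3 Arabic-numbered mutant cocaine arrays thus lay above all 3 mutant saline arrays, while the Roman-numbered arrays lay around the saline values. Near log2 4 to 5, differences can be compressed by the background model of the authors' processing, which was not tested here. Fitted with limma, the difference of Adcy6 was 0.27 ± 0.10 (SE) averaged over genotypes, with an adjusted p of 0.859, and 0.45 ± 0.13 in mutant mice, with an adjusted p of 0.66.

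Adcy9, a widely expressed cyclase that responds poorly to forskolin, read 9.78, 9.85 and 9.86 in control saline and 9.78, 9.68 and 9.66 in mutant saline mice. After cocaine the control arrays spanned 9.28 to 9.88 with a median of 9.69, and the mutant arrays spanned 9.71 to 10.27 with a median of 9.86. The highest value was replicate 5. In mutant mice the limma difference was 0.28 ± 0.13 (SE, adjusted p = 0.66). Adcy2 and Adcy3, a pair of cyclases expressed in many brain regions, stayed within 7.73 to 8.30 and 8.13 to 8.62 over all 18 arrays, and both had an averaged cocaine difference of 0.03.

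The subunits of soluble guanylyl cyclase were both measured, and the membrane cyclases Gucy2c and Gucy2e were below the filter. Gucy1b1, the beta subunit, was tight, with 12.16, 12.49 and 12.38 in control saline, 12.17, 12.29 and 12.26 in mutant saline, a range of 12.24 to 12.47 in control cocaine and of 11.97 to 12.34 in mutant cocaine mice. All 4 groups overlapped. Gucy1a1, the alpha subunit, was the least reproducible member. It ranged from 5.53 in mutant cocaine replicate 5 to 8.77 in replicate 6 of the same group, and within control saline mice from 7.05 to 8.42. Its averaged cocaine difference of -0.36 had a standard error of 0.42, with a 95% interval from -1.25 to 0.52, so these arrays set little limit on it.

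Of the 8 phosphodiesterases, Pde4a had the smallest p of any member in the averaged cocaine contrast. This enzyme hydrolyses cAMP and belongs to the rolipram-sensitive family. Pde4a read 4.60, 4.27 and 4.32 in control saline mice. In the Arabic-numbered control cocaine mice it read 4.97, 4.84 and 5.06, above every control saline array. In the Roman-numbered control cocaine mice it read 4.16, 4.09 and 3.97, below every control saline array. Mutant saline mice read 4.43, 4.96 and 4.52, and mutant cocaine mice 4.86, 4.64 and 4.76 in the Arabic and 3.80, 4.21 and 4.33 in the Roman series. The limma difference in control mice was 0.50 ± 0.15 (SE), a fold of 1.42, with an adjusted p of 0.957, and the average over genotypes was 0.34 ± 0.12 (SE), with an adjusted p of 0.819. Without the numbering series in the fit that average was -0.04, so the sign of this difference depended on the series term.

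Pde4b, the brighter member of that family, lay between 11.08 and 11.65 on all arrays, with an averaged cocaine difference of 0.03 ± 0.07. Pde2a, which hydrolyses both messengers and is activated by cGMP, lay between 11.67 and 12.08 and was among the least variable members, with an SD of 0.09 over 18 arrays. Pde1a, a calmodulin-stimulated enzyme, spanned 7.24 to 8.35, with both extremes in Roman-numbered arrays. Of the cAMP-specific enzymes of family 7, Pde7b lay between 6.18 and 7.04. Pde7a was barely kept, above 4 in 3 arrays with a highest level of 4.46, and its averaged difference was -0.20 ± 0.13 (SE) with a limma adjusted p of 0.859. Pde8a, a high-affinity cAMP enzyme, and Pde9a, which is specific for cGMP, spanned 6.54 to 7.30 and 6.47 to 7.64. Below the filter were Pde1c, Pde3a, Pde6a, Pde6b, Pde6c, Pde6g and Pde6h, most of the last group being known from photoreceptors.

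The catalytic subunits of PKA varied little. Prkacb, the beta subunit, read 12.30, 12.25 and 12.36 in control saline and 12.37, 12.46 and 12.28 in mutant saline mice. All 6 mutant cocaine arrays, at 12.16 to 12.27, lay below the 3 mutant saline arrays, although by little. It was the only member whose mutant cocaine and mutant saline arrays did not overlap, where 4.67% of all genes were parted in that comparison. The limma difference was -0.10 ± 0.05 (SE, adjusted p = 0.66), and its 95% interval ran from -0.21 to 0.01. Prkaca, the alpha subunit, lay between 8.34 and 9.18 and had an averaged cocaine difference of -0.06 ± 0.11.

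Prkar1a was the only member called in any fit of a cocaine contrast, and only in alternative fits. It read 12.42, 12.42 and 12.56 in control saline mice and 12.40, 12.54 and 12.45 in mutant saline mice. In the Arabic-numbered cocaine animals it read 12.41, 12.35 and 12.33 in control and 12.28, 12.20 and 12.13 in mutant mice. In the Roman-numbered animals it read 12.62, 12.58 and 12.47 in control and 12.58, 11.66 and 12.47 in mutant mice, the 11.66 being replicate 5. Within the Arabic series, cocaine arrays lay below saline arrays in both genotypes, where 4.13% of genes did so in control and 9.14% in mutant mice. The Roman-numbered arrays other than replicate 5 were within or above the saline range.

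The averaged limma difference of Prkar1a was -0.18 ± 0.11 (SE), a fold of 0.88, with an adjusted p of 0.859. Without mutant cocaine replicate 5 the size was the same, the standard error was 0.041, and the adjusted p was 0.0287. In the Arabic-numbered arrays alone the adjusted p was 0.0264. Those fits called 0.514% and 0.593% of all genes as lower, and Prkar1a was the only member among them. With an actin 3′ minus 5′ term and all arrays the difference was -0.12 with an adjusted p of 0.774, and with that term but without replicate 5, a fit chosen after the values were seen, it was -0.21 with an adjusted p of 0.0459. The call was thus made only in fits without replicate 5, whose actin difference was the widest of the 18 arrays. The Roman-numbered cocaine animals have no saline animals of their own series, and those other than replicate 5 did not show the lower level.

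Its second probe set, with a mean level of 10.20, gave the same arrangement. It read 10.22, 10.17 and 10.31 in control saline and 9.99, 10.20 and 10.19 in mutant saline mice, 10.02, 10.04 and 9.89 and 9.99, 9.90 and 9.91 in the Arabic-numbered control and mutant cocaine mice, and 11.07, 10.60 and 10.50 and 10.58, 9.57 and 10.44 in the Roman-numbered ones. Arabic-numbered cocaine arrays were again below the saline arrays of their genotype, except that 1 mutant cocaine and 1 mutant saline array were level at 9.99, and the Roman-numbered arrays other than replicate 5 were again above them. The limma difference was -0.22 ± 0.15 (SE, adjusted p = 0.859).

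Prkar1b, the beta form of the type I regulatory subunit and known as enriched in brain, lay between 12.89 and 13.34 on all arrays, with an averaged cocaine difference of 0.03 ± 0.05. Prkar2a was below the filter. Prkg2, the membrane-bound cGMP-dependent kinase, lay between 5.75 and 6.66, the highest value again in replicate 5, while Prkg1 was below the filter.

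**Figure D2:**
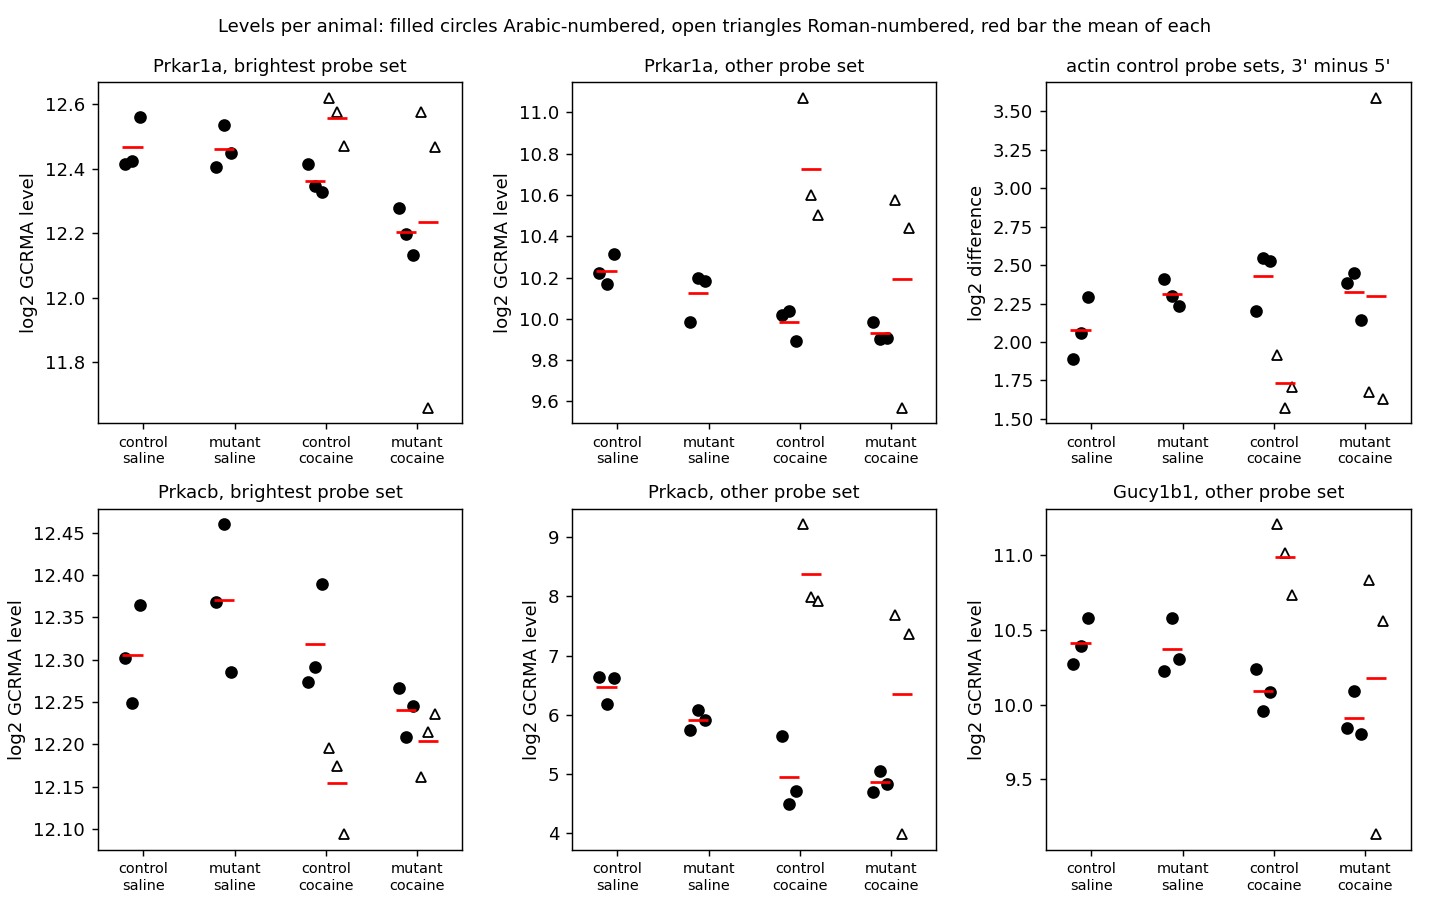
Log2 levels per animal in the 4 groups, for both probe sets of Prkar1a and of Prkacb, the dimmer probe set of Gucy1b1, and the actin 3′ minus 5′ difference, each panel on its own axis. Filled circles are Arabic-numbered animals, open triangles Roman-numbered animals and red bars their means. The Roman-numbered arrays other than replicate 5 stand above the Arabic-numbered cocaine arrays in the dimmer probe sets of all 3 genes and below them in the actin difference, and replicate 5 takes the opposite place in each.

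Of the anchoring proteins, 7 were measured and Akap3, Akap4, Akap7 and Akap10 were below the filter. Akap12, or gravin, a scaffold of PKA and protein kinase C beneath the plasma membrane, had the largest averaged cocaine difference, 0.39 ± 0.17 (SE), with a limma adjusted p of 0.859. It read 4.62, 5.17 and 5.15 in control saline and 4.82, 5.39 and 4.70 in mutant saline mice. The Arabic-numbered cocaine arrays read 5.32, 5.85 and 5.34 in control mice, above all of their saline arrays, and 5.32, 5.16 and 5.19 in mutant mice, within theirs. The Roman-numbered control arrays, at 4.85, 5.06 and 4.96, were within the saline range. The Roman-numbered mutant arrays read 5.02, 5.71 and 5.22, and the 5.71, of replicate 5, lay above every saline array.

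Akap8, an anchoring protein of the nucleus, read 7.08, 6.80 and 7.04 in control saline mice and 7.08, 7.44 and 7.20 in the Arabic-numbered control cocaine mice, a limma difference of 0.21 ± 0.10 (SE) in control mice with an adjusted p of 1. Its 6 mutant cocaine arrays were unusually close together, from 7.05 to 7.12. Akap8l, its nuclear relative, lay between 7.36 and 8.08. Akap1, which anchors PKA at mitochondria, spanned 7.43 to 8.33 with the highest value in replicate 5. Akap9, a large scaffold of centrosome and Golgi, was the noisiest anchoring protein, spanning 6.26 to 8.85 with a standard error of 0.31 for its averaged cocaine difference of 0.00. The 6.26 was control cocaine replicate 4, and the other arrays of that group lay between 8.03 and 8.33. Akap2 lay between 6.08 and 6.66, and Akap17b between 6.90 and 7.67.

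**Figure D3:**
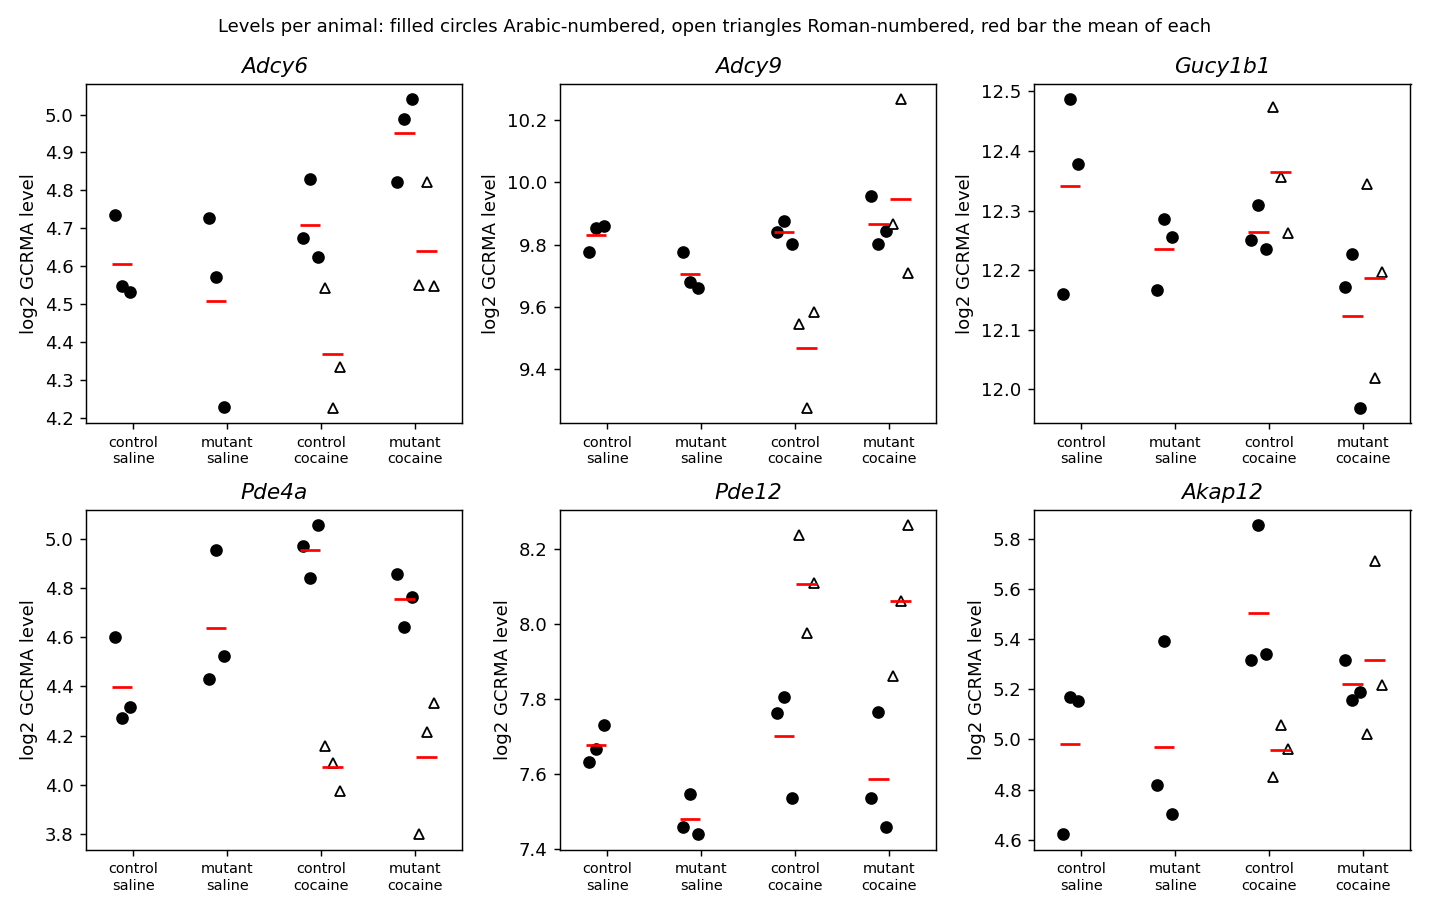
Log2 levels per animal of Adcy6, Adcy9, Gucy1b1, Pde4a, Pde12 and Akap12 in the 4 groups, each panel on its own axis that does not start at 0. Filled circles are Arabic-numbered animals, open triangles Roman-numbered animals and red bars the mean of each set of 3. Within the cocaine groups the triangles lie below the circles in Pde4a and above them in Pde12.

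Within the Arabic series, the control cocaine and saline arrays did not overlap for 4 members, Akap12, Akap8 and Pde4a higher and Prkar1a lower, where 9.93% of all genes were so parted. The mutant arrays did not overlap for 5, Adcy6 and Adcy9 higher and Gucy1a1, Prkacb and Prkar1a lower, where 16.8% of genes were. Prkar1a is in both lists, as lower, and the share of all genes in both was not counted. The members' shares within each genotype lie near those of all genes. Over all arrays, control cocaine and control saline mice were parted for 0 members, against 2.64% of genes.

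Taken by genotype, cocaine called 0 members in control mice, where limma called 0.158% of genes, and 0 in mutant mice, where it called 0.0659%. At an unadjusted p under 0.05 there was 1 member in control mice, Pde4a, against 2.8% of genes, and there were 2 in mutant mice, Adcy6 and Adcy9, against 6.38%. Medians over members were 0.03 and -0.00, beside 0.01 over all genes in each. Whether the response differed between genotypes was tested as an interaction, which called 0 members and 0% of genes. There the smallest adjusted p of a member was 0.992, although 1 member, Adcy9, had an unadjusted p under 0.05, against 2.68% of genes. The limma interaction of Adcy9 was 0.38 ± 0.17 (SE), that of Adcy6 0.35 ± 0.17, that of Akap8 -0.21 ± 0.13, that of Pde4a -0.32 ± 0.20 and that of Akap9 0.73 ± 0.53, all with an adjusted p of 0.992. Over the alternative fits other than leaving out 1 array, the Adcy9 interaction ranged from 0.15 to 0.39. In Arabic-numbered animals its genotype difference was 0.03 after cocaine and -0.13 after saline. The other 2 probe sets of Adcy9 gave smaller interactions, 0.18 ± 0.12 and 0.11 ± 0.15. The other probe set of Akap9 gave 0.20 ± 0.30, and that of Akap8 gave -0.20 ± 0.27. With 1 array left out at a time, the interaction of the brightest Akap9 probe set ranged from 0.41 to 1.08. The interval was within 0.5 of 0 for 16 of 29 members, and reached beyond 0.5 for the other 13.

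**Figure D4:**
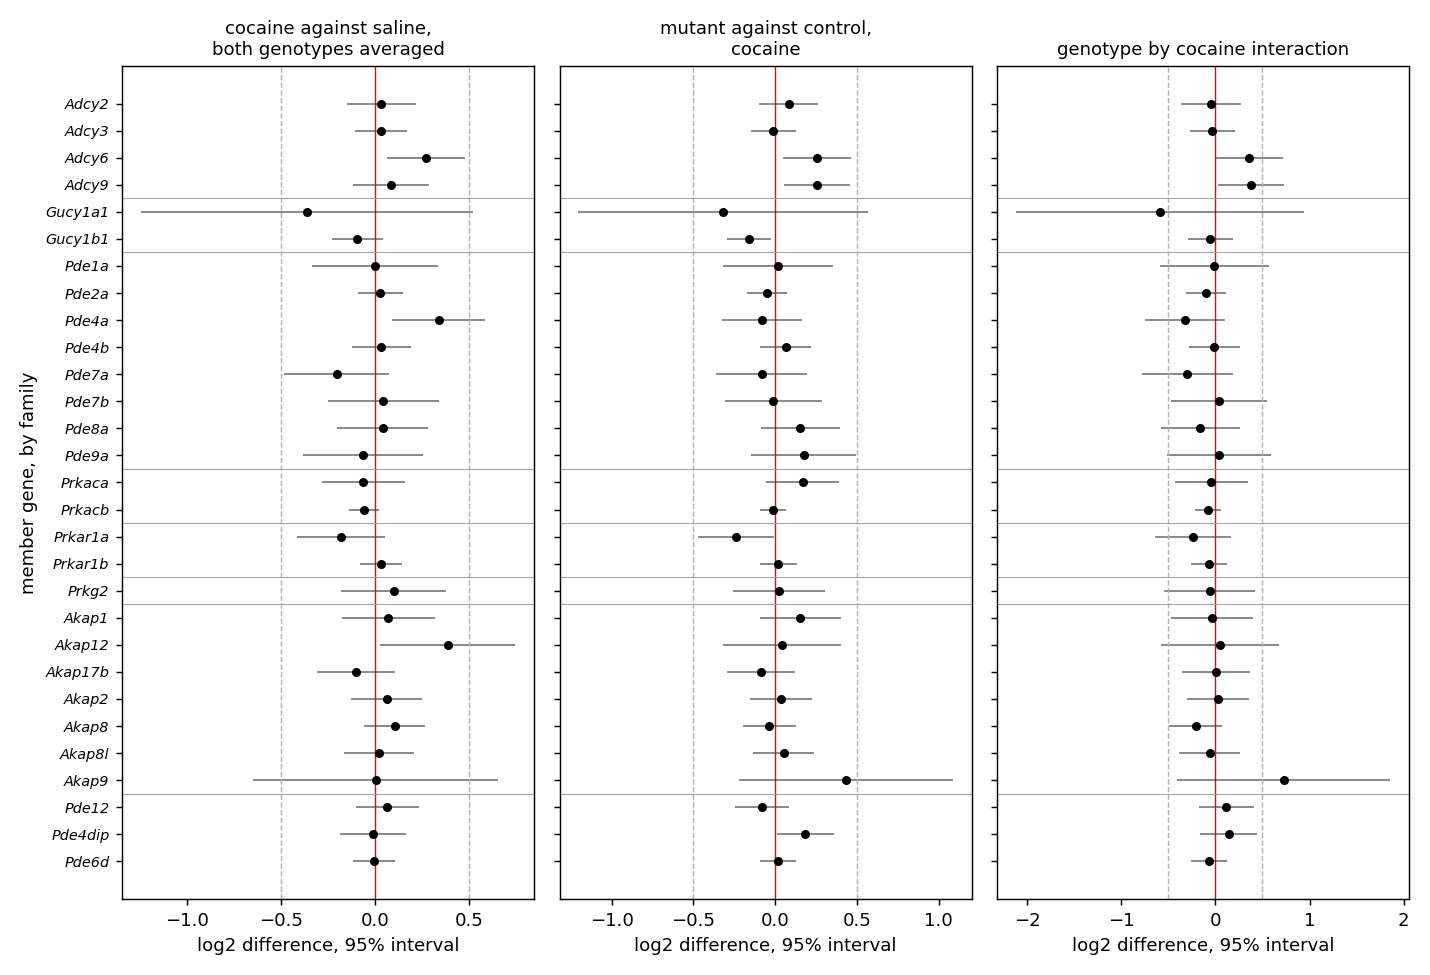
Fitted log2 differences of the 29 members with 95% intervals from limma, for cocaine against saline averaged over genotypes, mutant against control after cocaine, and the genotype by cocaine interaction, with a wider scale in the last. The red line is 0 and the dashed lines mark 0.5 on either side. In the first panel 25 of 29 intervals stay inside the dashed lines, and Gucy1a1 and Akap9 have the widest.

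Genotype made no called difference after saline. Limma called 0 members and 0% of genes, and 0 members against 2.84% of genes had an unadjusted p under 0.05. The median over members was 0.07, and 0.03 over all genes. Mutant and control saline arrays did not overlap for 3 members, where 11.6% of genes were parted. Of these, Pde8a read 6.67, 6.73 and 6.74 in control and 6.83, 7.27 and 6.97 in mutant mice, a difference of 0.31 ± 0.16 (SE) with a limma adjusted p of 1. Pde12, a phosphodiesterase of mitochondria that acts on RNA and not on cyclic nucleotides, read 7.63, 7.67 and 7.73 in control and 7.46, 7.55 and 7.44 in mutant mice. Akap1 read 7.63, 7.69 and 7.43 against 7.75, 7.85 and 7.73. The other members of smallest p were Akap8 at 0.18 ± 0.11, Pde4a at 0.24 ± 0.16 and Prkaca at 0.21 ± 0.15, and all of their groups overlapped.

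After cocaine, with 6 animals of each genotype, limma again called 0 members and 0% of genes. At an unadjusted p under 0.05 there were 5 members, Adcy6, Adcy9 and Pde4dip higher and Gucy1b1 and Prkar1a lower in mutant mice, but 10.4% of all genes passed the same mark. Over all 12 arrays 0 members were parted, against 0.185% of genes. The Adcy9 difference was 0.25 ± 0.10 (SE) and that of Adcy6 0.26 ± 0.10, both with a limma adjusted p of 0.427. When the genotype labels were permuted within each numbering series, exactly and two-sided over 400 relabellings, the unadjusted p was 0.035 for Adcy9, 0.015 for Adcy6, 0.035 for Gucy1b1, 0.025 for Prkar1a and 0.06 for Pde4dip, among 29 members tested. These 5 were picked by their limma p on the same arrays, so the permutation is no independent check. The share of all genes under 0.05 by permutation was not computed.

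The series differed for some of them. For Adcy9, mutant minus control after cocaine was 0.03 in Arabic-numbered animals and 0.48 in Roman-numbered ones, where the control mice read 9.55, 9.28 and 9.58 and the mutant mice 9.87, 10.27 and 9.71. For Pde4dip, which encodes myomegalin, a protein of centrosome and Golgi, the values were 0.05 and 0.31. Adcy6 gave 0.24 and 0.27, Gucy1b1 gave -0.14 and -0.18, and Prkar1a gave -0.16 and -0.32, so that these 3 had the same sign in both series. The Roman-numbered value of Prkar1a rested on replicate 5. Without it, in a comparison of means with no test that was chosen after the values were seen, the Roman-numbered difference was -0.03 for Prkar1a, -0.09 for Gucy1b1, 0.18 for Adcy6, 0.28 for Pde4dip and 0.32 for Adcy9. For Pde4dip, the Roman-numbered control cocaine replicate 5 read 8.208, against 8.60 to 8.76 in the other control cocaine arrays. With 1 array left out at a time, the Pde4dip genotype difference after cocaine over both series ranged from 0.098 to 0.22. Within the Arabic series 3 members were parted, Gucy1b1, Prkacb and Prkar1a, all lower in mutant mice, against 11.6% of genes. Within the Roman series 3 were parted, Adcy6, Adcy9 and Pde4b, all higher, against 14% of genes. No member was in both sets, but the share of all genes in both was not counted, so this is not read as a trait of the members.

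Without mutant cocaine replicate 5 the genotype difference after cocaine was 0.16 for Adcy9, 0.21 for Adcy6, -0.12 for Gucy1b1, -0.10 for Prkar1a and 0.16 for Pde4dip, and limma called 0 of them. Without mutant cocaine replicate 6, whose Camk4 level was that of a control, limma also called 0 members in each genotype contrast. Averaged over treatments, genotype called 0 members and 0% of genes, and 2 members, Gucy1b1 and Pde8a, had an unadjusted p under 0.05, against 7.19% of genes. Gucy1b1 was lower by a fitted -0.13 ± 0.06 (SE) and Pde8a higher by 0.23 ± 0.10, both with a limma adjusted p of 0.679. Next were Prkaca at 0.19 ± 0.09, Pde12 at -0.14 ± 0.07 and Akap1 at 0.17 ± 0.10.

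More members were called between the numbering series than for treatment or genotype, where 0 were. The labels do not say what the series is, and the limma term compares Roman- with Arabic-numbered cocaine animals. It called 3 of 29 members, where 5.16% of all genes were called. Pde4a was lower by -0.76 ± 0.12 (SE, adjusted p = 0.005), Pde12 was higher by 0.44 ± 0.08 (adjusted p = 0.00786) and Prkar1b was lower by -0.19 ± 0.05 (adjusted p = 0.0433). The probe sets of Prkar1b disagreed. Its further ones gave -0.16 ± 0.06 (adjusted p = 0.102) and 0.32 ± 0.29 (adjusted p = 0.519), and the mean of all its kept probe sets gave -0.010 (adjusted p = 0.959). Pde12 read 7.54 to 7.81 in the Arabic-numbered control cocaine mice and 7.98 to 8.24 in the Roman-numbered ones, and 7.46 to 7.77 against 7.86 to 8.26 in mutant mice. Pde4a and Pde12 were also the only members whose 6 Roman-numbered and 6 Arabic-numbered cocaine arrays did not overlap, where 1.83% of genes were parted. The median over members was -0.12, and that over all genes -0.05, with 10 members at an unadjusted p under 0.05 against 22.7% of genes. Adcy6 at -0.33 ± 0.10 and Adcy3 at -0.20 ± 0.07 came next, with adjusted p of 0.0606 and 0.0754.

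The count depended on replicate 5. Without it 11 members were called, where 25.6% of genes were, 2 of them higher (Pde12 and Prkar1a) and 9 lower. The lower ones were the cyclases Adcy3, Adcy6 and Adcy9, the PKA subunits Prkaca, Prkacb and Prkar1b, the anchoring proteins Akap17b and Akap8l, and Pde4a. Prkaca gave -0.35 ± 0.07 (SE, adjusted p = 0.00136) and Prkar1a 0.25 ± 0.04 (adjusted p = 0.000517). Leaving out 1 array at a time gave between 2 and 11 calls. Prkar1b lost its call in 14 of the 18, with adjusted p of 0.0511 to 0.104, and Adcy6 gained one without mutant saline replicate 3 (adjusted p = 0.0467), as Adcy3 did without control cocaine replicate 1 (adjusted p = 0.0339). With the actin term 2 members stayed past the threshold, Pde4a at -0.74 and Pde12 at 0.45, and with that term but without replicate 5 none did, although the differences were then larger, -0.99 for Pde4a (adjusted p = 0.0708) and 0.63 for Pde12 (adjusted p = 0.0818). The actin difference itself was lower in the 5 other Roman-numbered arrays than in the Arabic-numbered ones, and its part in these calls was not tested beyond these fits.

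Several genes had more than 1 kept probe set, 13 of the 29 in all, and those did not always read alike. The largest gap was in Prkacb. Its dimmer probe set, with a mean of 6.16, read 6.63, 6.18 and 6.62 in control saline and 5.75, 6.08 and 5.92 in mutant saline mice. In the Arabic-numbered cocaine mice it read 5.65, 4.50 and 4.72 in control and 4.70, 5.05 and 4.83 in mutant animals, below every saline array of their genotype. In the Roman-numbered animals it read 9.22, 8.00 and 7.93 in control and 7.69, 3.98 and 7.37 in mutant mice, above every saline array except for replicate 5.

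For that probe set the averaged cocaine difference was -1.29 ± 0.53 (SE, limma adjusted p = 0.859), against -0.06 in the bright one. Its difference between series was 2.46 ± 0.53 (adjusted p = 0.0167), against -0.10. The dimmer probe sets of Gucy1b1 and Prkar1a had a like arrangement, except that mutant cocaine replicate 6, at 10.56 for Gucy1b1, was just below the highest saline array of either genotype, at 10.58. They gave series differences of 0.58 ± 0.22 and 0.50 ± 0.15 (adjusted p = 0.121 and 0.0533). That of Pde4dip gave 0.45 ± 0.13 (adjusted p = 0.0531) where its brightest gave -0.08. The other 2 probe sets of Adcy9 gave -0.21 ± 0.07 and -0.25 ± 0.08 (adjusted p = 0.0853 and 0.082), in the direction of its brightest, -0.15. For cocaine in mutant mice those 2 gave 0.06 ± 0.09 and 0.10 ± 0.11, against 0.28 in the brightest. For genotype after cocaine they gave 0.12 ± 0.07 and 0.13 ± 0.08, against 0.25. Of the 16 further probe sets, 9 had the sign of the brightest one between series and 8 had it in the averaged cocaine contrast. After cocaine, the second probe set of Gucy1b1 was lower in mutant mice by a fitted -0.49 ± 0.22, which has the sign of its brightest at -0.16. Where in the transcript each probe set lies was not looked up.

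The other genes of the pathway, a list of 40 receptors, G proteins, effectors and transcription factors, had 22 measured. Limma called 0 of them in the cocaine, genotype and interaction contrasts, and the median averaged cocaine difference was 0.01. The 2 phosphodiesterases left out by the rule gave -0.02 ± 0.24 for Pde10a and -0.01 ± 0.04 for Pde1b, and Adcy5 had no kept probe set of 1 symbol. Between series, limma called 5.16% of all genes with every array and 25.6% without mutant cocaine replicate 5. With every array, 1 of the 22 was higher, Gnai3, an inhibitory G protein subunit, by 0.32 ± 0.07, and 3 were lower. These were the dopamine receptor Drd2 by -0.28 ± 0.07, the nitric oxide synthase Nos1 by -0.43 ± 0.12 and the natriuretic peptide receptor Npr2 by -0.43 ± 0.09, with adjusted p of 0.0134, 0.0271, 0.0468 and 0.0177 in that order.

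The filter decided which genes appear here. Just inside it was Pde7a, above 4 in 3 arrays, followed by Pde4a, above 4 in 16, and the other 27 members were above 4 on all 18 arrays. Just outside were Adcyap1r1, the receptor of the peptide PACAP, above 4 in 1 array at 4.73, and Akap10, whose highest level was 3.92. The peptide itself, Adcyap1, matched the rule by its letters only and reached 2.15.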

How the data were processed

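Expression of 22690 probe sets was measured on 18 arrays of striatal total RNA, 1 per animal. The deposited values are log2 levels, computed by the authors in R 2.4.1 by GCRMA, per the submitters' processing notes. GCRMA models background from probe sequence, equalises the arrays and summarises each probe set. A change in total signal is therefore removed, and dim differences can be compressed. Settings were not given in the sources used here, and columns that matched no sample numbered 0.

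After removal of the 64 Affymetrix control probe sets, those above log2 4 in 3 or more arrays were kept, 12674 in all. Genes were named from GEO's platform annotation where it gave 1 symbol. Limma 3.58.1 in R 4.3.3 fitted the 4 groups and the numbering series with an intensity trend, on 13 residual degrees of freedom, with two-sided moderated tests and Benjamini-Hochberg adjustment over all kept probe sets. A gene is called where the adjusted p of its probe set of highest mean level is under 0.05. The fit was run on simulated data with independent noise. These held no series difference and no degraded array, so that run does not bear on either. The number of arrays limits the precision.

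The members, the pathway, activity and marker lists and the tests were chosen with earlier results of these data known. Members are named by rule: those past the threshold in a contrast or, where fewer than 5 were, the 5 of smallest p, the 2 brightest of each family, and those whose probe sets disagree in a called contrast. Other members are given by their range.

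Replicate numbers shared by groups were checked for pairing. The deviations of same-numbered arrays correlated with a mean r of 0.0441 over 21 pairs, of which 7 were over 0.1. These replicate numbers were not taken to pair animals. The animal numbers in the titles also form blocks of consecutive numbers, each holding an animal of every group of its series. Arrays of a block correlated with a mean r of 0.0813, and 9 of 21 pairs were over 0.1. For any 2 arrays of a series from different groups it was -0.000611, and 17 of 63 pairs were. With these blocks fitted, 16 probe sets were called for averaged cocaine and 0 within either genotype, fewer than in the main fit. Alternatives changed the filter, the series term, the blocks, the arrays used, the weights, the moderation, the probe set rule, the centring and an actin term. Promoter windows came from RefSeq on GRCm38.p6. For the array annotation the build was not given in the sources used here, and no gene coordinates are printed.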

Additional observations from a re-analysis of the deposited data

Results flagged for a closer look

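Among 58 groups of 6 arrays, 2 for each member, 6 held an array far from the other 5 by Dixon's test at the 95% level, of which chance flags about 1 in 20. In control cocaine mice, Akap9 read 6.264 in replicate 4, where the others lay between 8.03 and 8.33, and Pde4dip read 8.208 in replicate 5, where the others lay between 8.60 and 8.76. In mutant cocaine mice, Akap2 read 6.656 in replicate 3 against 6.20 to 6.36 in the others, and Pde4b read 11.65 in replicate 4 against 11.09 to 11.28. Gucy1a1 read 5.535 in mutant cocaine replicate 5 against 7.61 to 8.77, and Prkg2 read 6.66 in the same array against 5.88 to 6.08. That array also had the widest actin 3′ minus 5′ difference, 3.59, whose part in these values was not tested. The 4 flags in other arrays stood where the actin difference was 1.91, 1.57, 2.14 and 1.68, in the order given.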

How the results depend on the processing

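Members called by limma in the treatment, genotype and interaction contrasts numbered 0 under every alternative tried, except for the averaged cocaine contrast. There Prkar1a gave 1 call in the Arabic-numbered arrays alone and 1 with an actin term but no mutant cocaine replicate 5, the latter chosen after seeing the data, and leaving out 1 array at a time gave 0 to 1. Between series, 12 members were called with array weights, 5 at an adjusted p under 0.1, 0 with the actin term and without replicate 5, and 2 to 11 with 1 array left out, against 3. Leaving out the series term moved the median over members to -0.036 averaged over genotypes and to -0.059 in mutant mice, and turned Pde4a to -0.042 and, in control mice, Prkar1b to -0.028. Prkar1b also turned, to -0.014, when all probe sets of a gene were averaged, where the series median was -0.0063. The interaction median was -0.11 in the Arabic-numbered arrays alone and -0.094 with array weights, and the genotype median after cocaine was 0.078 in the Roman-numbered arrays alone. With the actin term and without replicate 5 the medians were -0.053 (cocaine, control mice), 0.0103 (genotype, saline), 0.013 (interaction) and -0.0035 (series). The cause was not tested. With the replicate number as a replicate block, 0 members were called and the averaged cocaine median stayed at 0.03. The pairing check did not support the replicate block, and it changed no call of a member. With blocks of consecutive animal numbers, whose arrays correlated more, 0 members were called as well. With 3 saline arrays a group, 16 to 27 of the 29 intervals in these contrasts lay within 0.5 of 0, which limits what a count of 0 says.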
